A study of Brassica rapa subsp. pekinensis with 8 samples.

Results

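Of the 38008 annotated genes of Chinese cabbage (Brassica rapa), 61 were read almost only in one of the 2 inbred lines compared, the early-bolting line 4004 or the late-bolting line 50. They were chosen on the deposited raw counts, in which the lowest value is 1 and was read as no reads. A gene read almost only in line 4004 had at least 30 raw counts in both line 4004 libraries and at most 5 in each of the 6 line 50 libraries, and 38 genes met this. A gene read almost only in line 50 had the reverse pattern, and 23 genes met this. The limits alone were met by 66 genes, of which 5 (3 of the line 4004 side and 2 of the line 50 side) were left out because their descriptions name an intrinsic protein, an acid phosphatase or a fasciclin. The counts of all 8 libraries made the choice, so the difference between the lines in these 61 genes is a description and was not tested.

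RNA was sequenced from pooled shoots (the sample labels say leaf) of both lines to compare their response to vernalization, the long cold that allows flowering. The groups were line 4004 after 35 days of vernalization (D35_4004, 1 library) and before it (D0_4004, 1 library), and line 50 after 35 days (D35_50, 3 libraries) and before it (D0_50, 3 libraries). Plants in the cold also had fewer hours of light, and no warm-grown plants of equal age were sampled, so cold, day length and age cannot be told apart. Both line 4004 libraries carry the replicate number 3, and the replicates 1 and 2 of that line were not analysed here. The study's methods call the replicates independent biological ones, each pooled from several plants.

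Genes that are read in one inbred line and not in another are common in plant breeding material, and immune receptors and F-box proteins, the parts of ubiquitin ligases that pick targets, are families known for such differences. Brassica rapa descends from an ancestor whose whole genome was triplicated, so many single genes of Arabidopsis have several copies in it. Reads of both lines were mapped to one set of reference genes, and a count near the lowest value does not say whether the gene is missing from the line, differs from the reference in sequence or is not transcribed. These cases cannot be told apart from read counts.

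Library totals were between 18.3 M and 27.1 M counts, so the limit of 5 raw counts was 0.184 to 0.273 CPM, and a count of 0 allows up to 3 counts, or 0.111 to 0.164 CPM (counting error only). Replicate 3 of line 50 stood apart at both days: its scaling factors were 0.588 and 0.619, against 1.041 to 1.278 for replicates 1 and 2, so that a gene without reads has a normalized read count of 2 there and 1 elsewhere. The normalized read counts used below are not corrected for gene length, so an order of genes by them is one of reads and not of transcripts. Leaf markers summed to 801849 to 1307652 normalized read counts in line 4004 and 769870 to 2470584 in line 50, and root markers summed to at most 9 in any library. Shoot meristem markers summed to 476 and 586 in line 4004 and to 622 to 1605 in line 50. Flower markers (13 genes) summed to 496 and 519 in line 4004 and to 89 to 157 in line 50. The 3 flower markers that did not overlap between the lines were copies of SEP3, and the copies of AP1, AP3, PI and AG had at most 20 normalized read counts in any library. The SEP3 copies ran in parallel over the libraries, so they may not be separate observations. With 2 libraries against 6 a gene can lack overlap by chance, and the share of all genes without overlap is not given here. The part of these marker levels in the differences between the lines was not tested.

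Many of the 61 genes had no recognised Arabidopsis counterpart. No Arabidopsis locus was assigned to 21 of the 38 line 4004 genes (55.3%) and to 10 of the 23 line 50 genes (43.5%). Among all genes with at least 30 raw counts in both line 4004 libraries (24086 genes) the share without a locus was 0.972%, and among those with at least 30 in all 6 line 50 libraries (20218 genes) it was 0.722%. A protein domain was annotated for 10 line 4004 genes (26.3%, against 82.8% of the 24086 genes) and for 9 line 50 genes (39.1%, against 84.3% of the 20218 genes). A further 2 genes on each side had a locus but no description, which leaves 15 described genes in line 4004 and 11 in line 50. The mean normalized read count in the line with reads had a median of 100.2 over the 38 genes and of 134.7 over the 23 genes, against medians of 300.5 and 368.8 over the genes with at least 30 counts in the same libraries. In the other line, 8 of the 38 genes and 11 of the 23 genes had no reads in any library.

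The limits cut through a continuous range of counts. On the line 4004 side, Bra023650 and the trypsin inhibitor gene Bra016003 reached 5 raw counts in a line 50 library and were inside, while Bra018199 and the immune receptor gene Bra018448 reached 6 and were outside. Bra014909 and Bra038870, with 31 raw counts in their lower line 4004 library, were inside, and Bra027028 and Bra033185, with 29, were outside. On the line 50 side, the immune receptor gene Bra022069 reached 5 in a line 4004 library and was inside, while Bra025809 reached 7 and was outside. At the upper limit Bra029122 and Bra019403 had 30 and 32 counts in their lowest line 50 library, and Bra000776 and Bra015514 had 29 and 28 and were outside.

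Immune receptors were among the genes of both lines. These proteins bind products of pathogens inside the cell through leucine-rich repeats and switch on defence through a nucleotide-binding (NB-ARC) domain. Bra030778, an LRR and NB-ARC gene, had 113 normalized read counts in D35_4004 and 290 in D0_4004, against 2, 3 and 2 in the D35_50 libraries and 1, 1 and 2 in the D0_50 libraries. Bra022069, of the TIR-NBS-LRR class, had 5 and 2 in D35_4004 and D0_4004, against 617, 635 and 141 in D35_50 and 595, 715 and 123 in D0_50. Both were thus far higher in one line in every library, and the lines did not overlap, as the rule requires. By their descriptions immune receptors made up 3 of the 61 genes (4.92%), against 0.573% of the 24276 genes with at least 30 counts in every library of either line. Counted by the NB-ARC domain, a count added after the values were seen, they were again 3, since Bra022069 carries only the leucine-rich repeat annotation and Bra000758 carries an NB-ARC domain.

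Bra000758 was assigned to WRKY19, which in Arabidopsis joins receptor domains to a WRKY domain and a kinase domain. Its description names a protein kinase, but its annotated domains include leucine-rich repeats and NB-ARC and neither a kinase nor a WRKY domain. Bra000758 had a normalized read count of 1 in both line 4004 libraries, against 173, 190 and 58 in D35_50 and 155, 151 and 81 in D0_50. The other genes described as kinases were also of the line 50 side. Bra005276, a member of the protein kinase superfamily, had 4 and 5 in D35_4004 and D0_4004, against 102, 98 and 139 in D35_50 and 134, 117 and 118 in D0_50. Bra008755, of the GHMP family of small-molecule kinases, had 2 in both line 4004 libraries and 55 to 91 over the line 50 libraries. By their descriptions kinases were 3 of the 61 genes (4.92%) and 5.92% of the 24276 genes. No kinase domain was annotated for Bra000758 or Bra005276.

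The 3 genes described as F-box proteins lay on both sides, and by description the class was 4.92% of the 61 genes and 0.507% of the 24276. No domain was annotated for Bra031067. The single domain annotated for Bra029126 and Bra029122 is an F-box-associated one and not the F-box itself. Bra031067 had 34 and 58 normalized read counts in D35_4004 and D0_4004, against 1 to 6 over the line 50 libraries. Bra029126 and Bra029122, both assigned to AT1G70390, had no reads in line 4004. In line 50 Bra029126 had 112, 113 and 95 at day 35 and 95, 89 and 90 at day 0, and Bra029122 had 86, 88 and 51 at day 35 and 74, 70 and 61 at day 0. At day 0 the mean was 91.3 ± 3.2 for Bra029126 and 68.3 ± 6.7 for Bra029122 (SD, n = 3 each), and a difference in spread was not tested. No other gene was assigned to this locus.

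The small-RNA machinery was represented by a pair of Argonaute genes, both of line 4004. Argonaute proteins carry small RNAs to the transcripts or chromatin that they silence. Bra011904 was assigned to AGO7, which in Arabidopsis works in the pathway that times the change from juvenile to adult leaves, and had 95 and 152 normalized read counts in D35_4004 and D0_4004, against 1 or 2 in line 50. Bra020152 was assigned to AGO9, which in Arabidopsis acts in the ovule, and had 125 and 71 in D35_4004 and D0_4004, against 4, 2 and 3 in D35_50 and 3, 1 and 3 in D0_50. The annotation gives Bra020152 the PAZ and Piwi domains of the family and gives Bra011904 no domain. Argonaute genes were 2 of the 61 (3.28%) and 0.0453% of the 24276, a count made after the values were seen.

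Among the other described genes of line 4004, Bra034270, of unknown function (DUF810), had 676 and 627 normalized read counts in D35_4004 and D0_4004, against 1 or 2 in every line 50 library. Bra007200, a cyclophilin-like peptidyl-prolyl isomerase, an enzyme class that helps proteins fold, had 807 and 437, against 1 to 3 in line 50. Bra022128, of the amidase family, had 142 and 282, against 1 or 2 in line 50. These levels put the isomerase and the DUF810 gene among the 3 line 4004 genes whose mean reached 500. Bra025701, assigned to the NAC domain transcription factor NAC027, had 79 and 134 in D35_4004 and D0_4004, against 1 or 2 in line 50. Bra016021, a GMC oxidoreductase gene, had 56 and 71, against 1 to 6 in line 50. Bra016003 (KTI1), a Kunitz-type inhibitor of proteases, had 41 and 78, against 1 to 5 in line 50. Bra030614 (DUF295) had 65 and 61, against 1 to 5 in line 50, and the cyanase gene Bra037801, whose product breaks down cyanate, had 37 and 51, against 1 to 3 in line 50.

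The described line 50 genes with the most reads were Bra019400, treated with its family below, and Bra005702. Bra005702 is described as an RNA-binding protein with a KH domain, though no domain was annotated for it. It had 3 and 4 normalized read counts in D35_4004 and D0_4004, against 607, 641 and 532 in D35_50 and 763, 922 and 753 in D0_50. Bra028166 encodes an HXXXD-type acyltransferase, a family that modifies plant metabolites, and had no reads in line 4004, against 402, 468 and 233 in D35_50 and 457, 545 and 296 in D0_50. Bra029717 was assigned to topoisomerase II, the enzyme that untangles DNA, and had no reads in line 4004, against 319, 353 and 72 in D35_50 and 245, 245 and 58 in D0_50. Replicate 3 was the lowest library of Bra028166 and Bra029717 at both days. A search of the descriptions for words of 12 further classes, among them translation (3.63% of the 24276 genes), transporters (2.83%), glycosyl enzymes (1.44%) and P450s (0.655%), found 0 of the 61 genes, of which 35 have no description to search. The words were narrow, so that topoisomerase and F-box descriptions fall outside the classes for DNA maintenance and ubiquitin.

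The gene with the most reads of all, Bra024653, had no description. It was assigned to AT1G24148 and had 1085 and 2435 normalized read counts in D35_4004 and D0_4004, against 2, 3 and 3 in D35_50 and 1, 1 and 2 in D0_50. Bra024707, assigned to AT1G26580, had 1 and 2 in line 4004, against 444, 462 and 230 in D35_50 and 536, 538 and 313 in D0_50. Both were read in every library of their line. The other 2 with a locus, Bra014909 (AT1G31335) and Bra036403 (AT2G15000), were low, with 39 and 30 in D35_4004 and D0_4004 for the first of them and 57 to 124 over the line 50 libraries for the second. Of the 21 line 4004 genes without a locus, Bra035638 had the most reads, at 369 and 221 in D35_4004 and D0_4004, and of the 10 in line 50, Bra033674, at 225, 232 and 334 in D35_50 and 171, 117 and 202 in D0_50.

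Some of these genes cannot be counted as separate. Bra026121 and Bra032745 had equal values in all 8 libraries, at 72 and 79 normalized read counts in D35_4004 and D0_4004, and the counts of Bra007880 and Bra035313 differed by at most 1.1%. Neither pair has a locus, and reads that match both copies may have been split between them, since the sources used here do not say how such reads were treated. In the line 4004 libraries alone, Bra014909 and Bra038870, and Bra031067 and Bra041048, were also within 10% of each other. So were Bra023650 and Bra013954, and Bra025841 and Bra016021. With 2 libraries such likeness may be a coincidence, and whether these pairs share reads was not tested. Identifiers that follow closely (Bra011904 and Bra011905, Bra013953 and Bra013954 in line 4004, Bra019400 and Bra019403, Bra029122 and Bra029126 in line 50) were on the same side, but no positions were available to say whether they are neighbours.

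AT1G14800, an Arabidopsis gene for a nucleic acid-binding protein with an OB fold, the fold of the proteins that coat single-stranded DNA, was the single locus with genes on both sides. Bra022234 had 447 and 395 normalized read counts in D35_4004 and D0_4004, Bra022043 had 97 and 108 and Bra036924 had 47 and 58, with at most 5 raw counts of any of them in all 6 line 50 libraries. Bra019400 had no reads in line 4004, against 1302, 1225 and 2455 in D35_50 and 1207, 1050 and 1570 in D0_50, the most reads of the line 50 genes. In all, 87 genes were assigned to this locus, of which 9 had no reads in any library, 43 had at most 5 raw counts in all 8 and 8 had at least 30 in all 8. The 4 genes together made up 13.9% of the normalized read counts of the locus in line 4004 and 37.4% in line 50.

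The other 83 genes of the locus were not chosen by the limits, so the comparison of lines could be tested in them. In the edgeR quasi-likelihood test (adjusted p under 0.05 and at least 2-fold, averaged over the days), 3 of the 36 that passed the filter on low counts were higher in line 4004, 3 were lower and 30 were not called (8.33% in each direction, against 1.46% higher and 0.773% lower of all 31191 genes tested). Bra007143 had 218 and 315 in D35_4004 and D0_4004, against 5, 6 and 2 in D35_50 and 3, 1 and 6 in D0_50 (log2 fold change 5.96 ± 0.44 SE, edgeR adjusted p = 0.0017). Bra036736 had 207 and 294, against 15, 15 and 8 in D35_50 and 7, 6 and 7 in D0_50 (4.66 ± 0.30, edgeR adjusted p = 0.0011). Bra019353 was higher in line 4004 by 2.20 ± 0.36 (log2, edgeR adjusted p = 0.03). Among those that were lower, Bra000776 had no reads in line 4004, against 32, 27 and 80 in D35_50 and 51, 39 and 81 in D0_50, at least 15.3-fold lower in line 4004 when 3 counts per library are taken as the floor (edgeR adjusted p = 0.037). Bra013455 (log2 fold change -3.66 ± 0.55, edgeR adjusted p = 0.023) and Bra018670 (-3.47 ± 0.60, edgeR adjusted p = 0.037) were the others that were lower. The counts of Bra013455 and Bra018670 ran close together, as did those of Bra007143 and Bra036736 in line 4004. Copies of this family may share reads, which was not tested, so the called genes may not all be separate. For the family's genes with the most reads the call depended on the fit. Bra010357 had 1152 and 865 in D35_4004 and D0_4004 and 300 to 505 over line 50 (1.21 ± 0.29, edgeR adjusted p = 0.098). Bra037023 had 618 and 350 and 582 to 1144 over line 50 (-0.73 ± 0.37, edgeR adjusted p = 0.39). Neither passed in this fit, but with the replicate number as a block Bra037023 was called (-1.18, edgeR adjusted p = 0.032), and Bra010357 was called by DESeq2 (1.20, adjusted p = 0.028) and without replicate 3 of D35_50 (1.40, edgeR adjusted p = 0.015). The block ties the line difference to replicate 3 of line 50, since both line 4004 libraries carry that number.

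**Figure D1:**
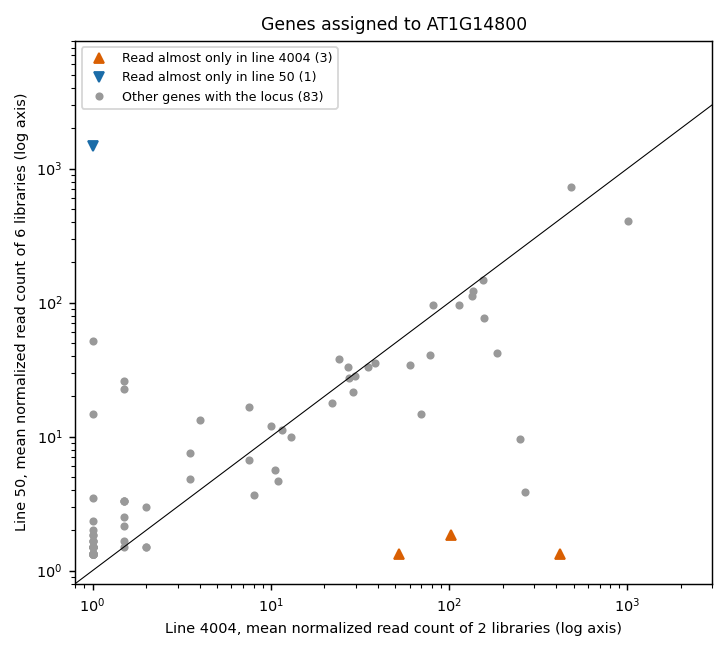
Mean normalized read count in line 4004 (2 libraries, x axis, log scale) and in line 50 (6 libraries, y axis, log scale) of the 87 genes assigned to AT1G14800, with the line of equal values. The 3 line 4004 genes (upward triangles) lie at the lower right, Bra019400 (downward triangle) at the upper left at 1468.2, and the other 83 genes (grey) include 3 called higher and 3 called lower in line 4004.

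The 30 genes with a locus belonged to 26 Arabidopsis loci, and 18 of these have other Brassica rapa copies that are not among the 61 genes. Of 148 such copies 72 were tested for the line difference, and 6 were higher in line 4004 (8.33%, against 1.46% of all genes tested), 6 were lower (8.33%, against 0.773%) and 60 were not called. Their median log2 difference was -0.11, against -0.05 over all genes tested. With the replicate number as a block in the fit 22 copies were called, the 12 of the fit without it among them, with 9 higher (12.5%, against 5.78% of all genes tested) and 13 lower (18.1%, against 5.31%), and 11.1% of all genes were called in either direction. DESeq2 called 18 copies (25.0%, against 6.04%). Without single line 50 libraries the calls were often fewer: 4 without replicate 1 or replicate 2 of D35_50, and 5 and 4 without replicate 1 and replicate 2 of D0_50. There were 15 without replicate 3 of D35_50 and 13 without replicate 3 of D0_50. Over all genes tested the share called in these fits also moved, between 0.747% without replicate 2 of D0_50 and 4.1% without replicate 3 of D35_50. Without a line 4004 library only the line difference at the other day remains, from 1 library of that line. This is another comparison, and its calls are not counted here. Bra007143 and Bra036736, which may share reads, were called under every setting tried that kept both line 4004 libraries. Their log2 line differences were 5.5 and 3.93 at day 35 alone (without D0_4004) and 6.42 and 5.39 at day 0 alone (without D35_4004).

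Outside AT1G14800, 36 copies were tested and 30 of them were not called. In line 4004, 3 were higher (8.33%, against 1.46% of all genes tested) and 3 lower (8.33%, against 0.773%). Of these called copies 4 are described here. Bra016277, the better read of the 2 other copies of AT1G26580, had 18 and 16 in D35_4004 and D0_4004, against 57 to 111 in D35_50 and 139 to 173 in D0_50 (log2 fold change -2.80 ± 0.38, edgeR adjusted p = 0.015), lower in line 4004 like Bra024707.

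The GMC oxidoreductase copy Bra008069 was higher in line 4004, with 18 and 25 in D35_4004 and D0_4004 and 1 to 6 over line 50 (log2 fold change 3.52 ± 0.57, edgeR adjusted p = 0.03), as was Bra016021. With 1 subtracted from every count this became 5.41 and did not pass (edgeR adjusted p = 0.1). Of the 15 other copies of KTI1, which are numerous and may share reads, Bra000137 was higher in line 4004 (3.30 ± 0.54, edgeR adjusted p = 0.031) and Bra016007 lower (-3.68 ± 0.55, edgeR adjusted p = 0.022), the second with -5.32 when 1 was subtracted (edgeR adjusted p = 0.021). Bra000137 had 203 and 53 in D35_4004 and D0_4004, against 25, 22 and 49 in D35_50 and 1, 2 and 6 in D0_50. Bra016007 had 2 and 1 in D35_4004 and D0_4004, against 139, 94 and 66 in D35_50 and 5, 4 and 5 in D0_50. At day 0 Bra016007 was thus near the floor in both lines, and its averaged difference came mostly from day 35. The copy with the most reads, Bra016002, had 895 and 1889 in D35_4004 and D0_4004, against 179, 117 and 301 in D35_50 and 3, 17 and 83 in D0_50, and did not pass (3.89 ± 0.85, edgeR adjusted p = 0.077). It was called with the replicate number as a block (2.88, edgeR adjusted p = 0.044), by DESeq2 (3.84, adjusted p = 0.0016) and without replicate 3 of D0_50 (4.78, edgeR adjusted p = 0.023). The line difference was 2.07 at day 35 alone (without D0_4004) and 5.74 at day 0 alone (without D35_4004). Bra016002 thus varied widely within line 50 as well, and Bra016003 made up 3.36% of the normalized read counts of the locus in line 4004.

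Several of the genes had a copy that was well read in both lines. The cyanase copy Bra014956 had 1361 and 1587 in D35_4004 and D0_4004, against 702 to 1598 over line 50 (log2 fold change 0.43 ± 0.42, edgeR adjusted p = 0.69), and Bra037801 was 2.9% of that locus in line 4004. The AGO7 copy Bra003999 had 71 and 183, against 67 to 140 over line 50 (-0.02 ± 0.28, edgeR adjusted p = 0.99), and Bra011904 was 49.3% of the locus in line 4004. The KH-domain copy Bra028656 had 508 and 490, against 354 to 550 over line 50 (0.02 ± 0.24, edgeR adjusted p = 0.98), while Bra005702 was 59.8% of the locus in line 50. Both lines thus held reads of these loci from another copy, and a difference of these copies between the lines was not detected at this spread. The topoisomerase II copy Bra011071 had 315 and 236 in D35_4004 and D0_4004, against 406, 388 and 609 in D35_50 and 897, 759 and 532 in D0_50 (-1.16 ± 0.33, edgeR adjusted p = 0.15; DESeq2 called it, -1.18, adjusted p = 0.03), and Bra029717 was 26.5% of its locus in line 50. The copy of AT1G31335, Bra023177, had 58 and 53 against 36 to 212 (-1.01 ± 0.76, edgeR adjusted p = 0.58) and was called with the replicate number as a block (-1.93, edgeR adjusted p = 0.033). Shares within a locus rest on counts that are not corrected for the length of each copy.

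**Figure D2:**
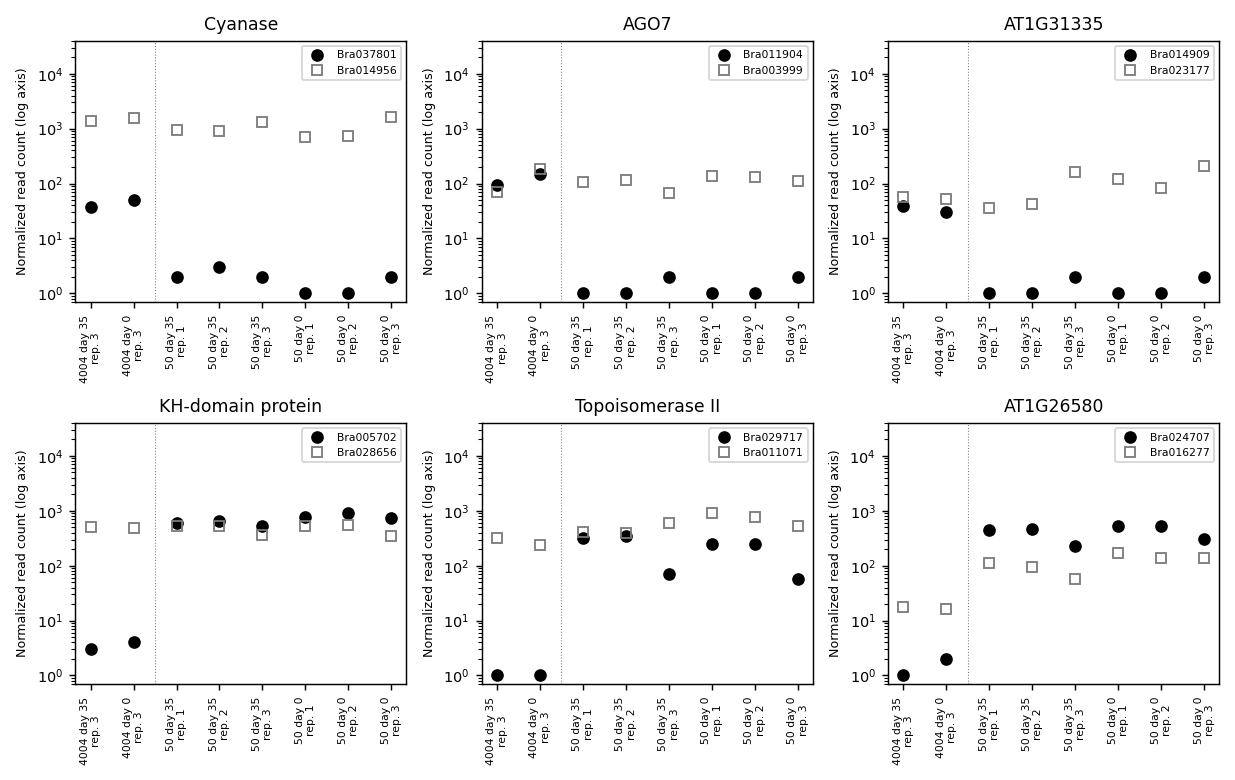
Normalized read count (log axis) in each of the 8 libraries of 6 genes read almost only in one line (filled circles) and of another copy of their Arabidopsis locus (open squares), with line 4004 left of the dotted line. The copies of cyanase, AGO7 and the KH-domain gene had 702 to 1598, 67 to 183 and 354 to 550 over all 8 libraries, while the filled circles fall to 5 or less in one line.

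Other genes had no such copy. Of the 14 loci with line 4004 genes alone, 10 have another copy, and in 5 of these a copy had at least 30 raw counts in every line 50 library. Of the 11 loci with line 50 genes alone, 7 have another copy, and in 4 of these a copy had at least 30 in both line 4004 libraries. The 8 loci without another copy were those of Bra024653, Bra034270, Bra007200 and Bra030778 in line 4004, and of Bra022069, Bra028166, Bra008755 and the F-box pair in line 50. For WRKY19 the other 2 copies were barely read, and Bra000758 made up 92.3% of the locus in line 50.

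None of the 23 line 50 genes was called for vernalization, and 1 was with the replicate number as a block, a fit that called 15.6% of all genes tested. In the edgeR fit 0 of 23 passed (adjusted p under 0.05 and at least 2-fold), against 3.92% of the 31191 genes tested (2.23% higher and 1.69% lower at day 35), 1 had an unadjusted p under 0.05, and DESeq2 called 0 (against 9.47% of all genes tested), with 2 at an unadjusted p under 0.05. Their log2 fold changes had a median of 0.07, against 0.01 over all genes tested, with 13 above and 10 below 0. Bra033674 averaged 263.7 ± 61.0 normalized read counts in D35_50 and 163.3 ± 43.0 in D0_50 (SD, n = 3 each), a log2 fold change of 0.70 ± 0.36 that did not pass (edgeR adjusted p = 0.34). Bra005702 averaged 593.3 ± 55.8 in D35_50 and 812.7 ± 94.8 in D0_50 (-0.44 ± 0.20, edgeR adjusted p = 0.29). It did not pass either. The D35_50 and D0_50 libraries did not overlap for Bra033674, which was higher at day 35, or for Bra005702, which was lower. With 3 libraries against 3 a gene can lack overlap by chance, and the share of all genes without overlap is not given here.

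The extremes of the range were a pair of genes without a locus. Bra031817 had 35, 41 and 148 normalized read counts in D35_50, against 154, 159 and 387 in D0_50 (log2 fold change -1.64 ± 0.74, edgeR adjusted p = 0.27). The highest D35_50 library lay below the lowest D0_50 library, so day 35 was lower in any pairing of the libraries. The share of all genes that lack such overlap is not given here. With the replicate number as a block Bra031817 was called (-1.80 ± 0.22, edgeR adjusted p = 0.0063), the single call among the 23 under that fit. It was also called without replicate 3 of D35_50 (-2.66, edgeR adjusted p = 0.042, with 9.69% of all genes called) and without replicate 3 at both days (-2.03, edgeR adjusted p = 0.00079, with 20.4% of all genes called). The other 14 of the 17 alternatives did not call it, and without replicate 3 of D0_50 its fold change was -0.99 (edgeR adjusted p = 0.46). Bra036783 had 67, 67 and 454 in D35_50, against 63, 52 and 195 in D0_50 (0.96 ± 0.96, edgeR adjusted p = 0.66), and without replicate 3 of D35_50 its sign turned (-0.64).

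In line 4004, with 1 library per day, the 38 genes were compared by size alone and with no replicate check. At least 2-fold higher at day 35 were 2 genes (5.26%, against 4.36% of the 24086 genes with at least 30 counts in both line 4004 libraries), and at least 2-fold lower were 3 (7.89%, against 6.5%). At this limit both shares are near those of all such genes. At 1.5-fold 5 genes were higher (13.2%, against 13.1%) and 10 lower (26.3%, against 15.3%), and with library totals as the scale 2 were at least 2-fold higher (5.26%, against 3.07%) and 6 lower (15.8%, against 8.78%). The median log2 ratio of day 35 over day 0 was -0.32, against 0.01 over the 24086 genes, with 13 of the 38 ratios above 1 and 25 below. The 95% counting interval of the ratio, from the exact Clopper-Pearson interval of the day 35 share of the counts, lay above 1 for 6 genes (15.8%, against 32.0% of the 24086 genes), below 1 for 15 (39.5%, against 30.1%) and held 1 for 17. The width of this interval falls with the number of reads, which was lower in the 38 genes than in the 24086.

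The genes at least 2-fold higher were Bra025470, with 132 normalized read counts in D35_4004 and 45 in D0_4004 (2.93-fold, 2.13 to 4.35), and Bra038004, with 248 and 86 (2.88-fold, 2.27 to 3.76), both without a locus. Below the limit came the isomerase gene Bra007200 (1.85-fold, 1.64 to 2.08), the AGO9 gene Bra020152 (1.76-fold, 1.31 to 2.39) and Bra035638 (1.67-fold, 1.42 to 1.99). At least 2-fold lower at day 35 were the immune receptor gene Bra030778, with 113 in D35_4004 and 290 in D0_4004 (2.57-fold lower, 2.07 to 3.23), Bra024653, with 1085 and 2435 (2.24-fold lower, 2.09 to 2.41), and Bra011905, with 33 and 67 (2.03-fold lower, 1.34 to 3.23). The amidase gene Bra022128 (1.99-fold lower) and the trypsin inhibitor gene Bra016003 (1.90-fold lower) followed. These intervals cover counting error in a single library per day, and the spread between plants of line 4004 is not in them.

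**Figure D3:**
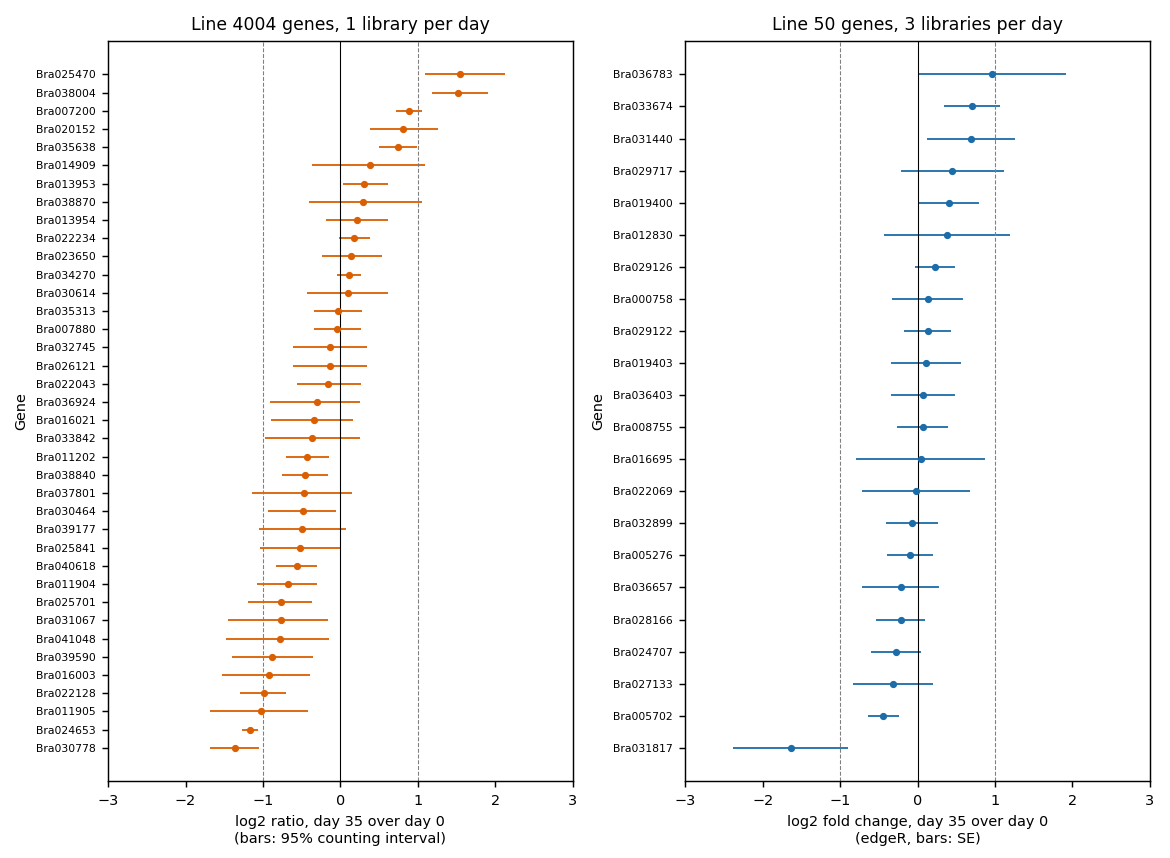
Log2 ratio of day 35 over day 0 for the 38 line 4004 genes (left, 1 library per day, bars are 95% counting intervals) and log2 fold change of day 35 over day 0 for 22 of the 23 line 50 genes (right, edgeR, bars are standard errors, 3 libraries per day). Dashed lines mark 2-fold; of the line 4004 genes 2 lie beyond it to the right and 3 to the left, and of the line 50 genes Bra031817, at -1.64, lies beyond it.

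For some of the line 50 genes replicate 3 lay apart from replicates 1 and 2 at both days, as it did for some of all genes. The ratio of replicate 3 to the mean of the other two had the same sign at both days for 20 of the 23 genes (87.0%, against 80.3% of the 20218 genes with at least 30 counts in all 6 line 50 libraries). It was at least 2-fold lower in replicate 3 at both days for 2 genes (8.7%, against 9.99%) and at least 2-fold higher at both days for 4 (17.4%, against 6.63%). The immune receptor gene Bra022069 was 4.44-fold lower in replicate 3 at day 35 and 5.33-fold lower at day 0, and the topoisomerase II gene Bra029717 was 4.67-fold and 4.22-fold lower. The genes that were higher had no locus: on the log2 scale Bra036783 was 2.76 higher at day 35 and 1.76 at day 0, Bra016695 2.57 and 1.07, Bra012830 2.34 and 1.36, and Bra031817 1.96 and 1.31. Bra000758, assigned to WRKY19, was 3.13-fold lower in replicate 3 at day 35 and 1.89-fold lower at day 0.

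Across the 23 genes the log2 ratios of the days followed each other, with r = 0.94 and Spearman's rho = 0.95, against 0.77 and 0.77 across the 20218 genes. The points are genes and not independent replicates, and each point's days share the replicate number. All 23 genes stayed at 30 raw counts or more in every replicate, since the rule requires it. By the rule on replicates 1 and 2 of line 50 alone 94 genes would be chosen (42 of line 4004 and 52 of line 50), and on replicate 3 alone 108 (77 and 31). The 61 genes are among them in both cases by construction, since they meet the limits in every library.

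**Figure D4:**
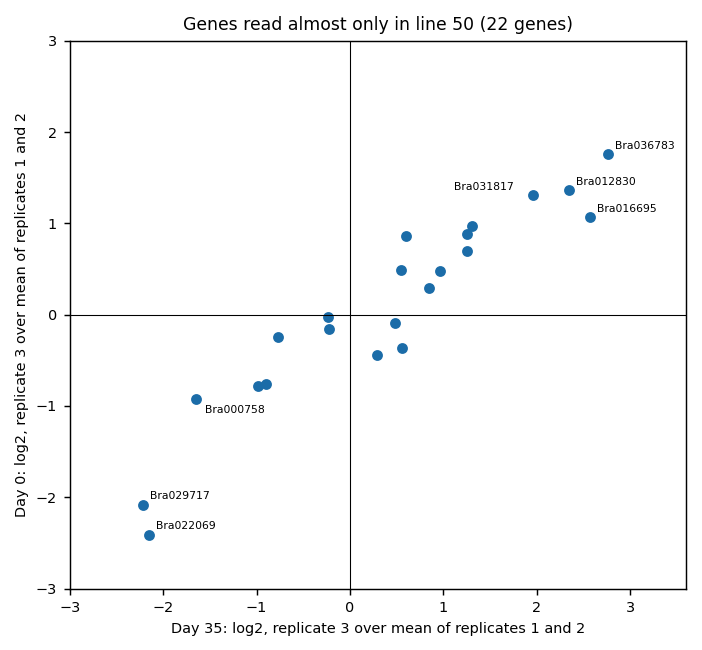
Log2 ratio of replicate 3 to the mean of replicates 1 and 2 in line 50, at day 35 (x axis) and day 0 (y axis), for 22 of the 23 genes read almost only in line 50. Bra022069 and Bra029717 lie at the lower left, below -2 on both axes, and Bra036783, Bra012830, Bra016695 and Bra031817 lie at the upper right.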

How the data were processed

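Per the labels and the study's methods, TruSeq RNA libraries were sequenced as Illumina paired-end reads, trimmed with SolexaQA and mapped with Bowtie2 to a Brassica rapa reference gene set. The sources used here do not name the counting program. The authors deposited raw counts per gene, whole numbers to which 1 appears to have been added, and normalized read counts (a score: counts divided by a DESeq factor per library over 12 libraries and rounded). The 4 deposited columns of the authors' log2 ratios of group means were not used.

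The quasi-likelihood F test of edgeR 4.0.16 (R 4.3.3, TMM, filterByExpr) was run on the raw counts in one fit of the 8 libraries with a coefficient per group, 31191 genes tested, all 61 members among them. Residual degrees of freedom were 4, all from line 50, and the common biological coefficient of variation was 0.398; the spread of line 50 thus stands in for that of line 4004. A gene was called when its p, adjusted after Benjamini and Hochberg, was under 0.05 and its log2 fold change at least 1 in size. Same-numbered D35_50 and D0_50 libraries deviated together (correlations 0.45, 0.62 and 0.69 for numbers 1, 2 and 3). Replicate 1 of D35_50 correlated more with replicate 2 of D0_50 (0.56) than with its own number, and replicate 2 of D35_50 correlated with replicate 1 of D0_50 at 0.47. Replicate 3 went against the other numbers (-0.5 to -0.66). The values thus set replicate 3 apart and do not show that numbers 1 and 2 pair the libraries. The fit above has no term for the replicate number, which entered only as a block in an alternative fit.

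The members and lists were chosen with earlier results of these data known. Named were the 10 described members with the highest mean per line, the 5 largest and 5 smallest day ratios in line 4004, the 2 highest of each class, members of a locus with both sides, and the 2 genes nearest each limit. The cyanase gene, Bra008755, Bra031067, the genes without a description, and all other copies were named after their values were seen. Of the 61 identifiers 0 matched the RefSeq gene table at hand, so no coordinates or sequences are given. The values of 1 line 50 member and of other copies of its locus are not reported here, though counts include them. Alternatives were DESeq2 1.42.0, its size factors, no filter, 1 subtracted, a replicate block, left-out libraries and other limits.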

Additional observations from a re-analysis of the deposited data

How the results depend on the processing

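With the replicate block, 4876 genes were called for vernalization in line 50 in place of 1224, 1 line 50 member in place of 0 and 22 other copies in place of 12. For the copies the block ties the line difference to replicate 3 of line 50. DESeq2 called 2954 genes for vernalization in line 50. Without single libraries, or a replicate number at both days, the counts were between 0 and 6352 for all genes and 0 and 1 for the line 50 members. For the copies they were between 4 and 15 without single line 50 libraries. The 5 line 4004 genes at least 2-fold different became 15 at 1.5-fold (10 of them lower at day 35, 26.3% against 15.3% of all genes), 0 at 3-fold and 8 with library totals (6 lower, 15.8% against 8.78%). The 61 members became 30 with limits of 3 and 50, 132 with 10 and 20, 94 on line 50 replicates 1 and 2, 108 on replicate 3, 167 on day 0 and 112 on day 35. Log2 fold changes whose sign turned were those of Bra022069 (0.03 with the block, -0.46 to 0.40 with a library or number left out), Bra036783 (-0.64 to 1.88 with one left out), Bra019400 (-0.04 to 0.65), Bra003999 (0.02 with no filter, 0.21 with the block), Bra014956 (-0.16 with the block) and Bra028656 (-0.05 to 0.07 with one left out). The line difference of Bra003999 was -0.1 to 0.04 with a line 50 library left out, -0.49 at day 35 alone and 0.46 at day 0 alone. None of these passed the test in either form, and the cause was not tested. Of 430 values of 30 named fold changes under alternatives, 354 kept their direction and side of the threshold, 49 lost and 11 gained a call. With 1 line 4004 library per day, the spread within that line was not measured.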
